A study of Mus musculus with 9 samples.

Results

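The genes described here encode the protein folding, import and disposal machinery of the endoplasmic reticulum (ER). They are 36 of the 57010 genes in the deposited table and were chosen by function in 4 classes: 14 chaperones and folding enzymes, 12 subunits of the Sec61 translocon, the translocon-associated TRAP complex and the signal peptidase, 7 genes of ER-associated degradation and 3 genes of stress sensing, the sensors Ern1 and Atf6 and the transcription factor Xbp1. All 36 had enough reads to be tested, and none was dropped for low counts. RNA sequencing was done on liver of male BALB/c mice, with 3 libraries in each of 3 groups. The AT3 and CPT groups carry the same treatment label, acute liver injury caused by the DNA-crosslinking platinum drug cisplatin, and the CON group is labelled as without treatment. The labels do not say what AT3 stands for; the study's title names the plant compound atractylenolide III, and the sources used here give no dose, route, time or age. No label ties the 3 libraries of a group to different animals, and the p-values below therefore cover only the differences seen among these libraries, which may in part be technical.

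Secreted and membrane proteins enter the ER through the Sec61 channel, lose their signal peptide to the signal peptidase and fold with the help of chaperones; hepatocytes, which release most plasma proteins, carry a large load of this work. Proteins that fail to fold are drawn back into the cytosol, ubiquitinated and degraded. When unfolded proteins build up, the sensors IRE1 (gene Ern1), ATF6 and PERK start the unfolded protein response, in which the transcription factors XBP1 and ATF6 bind short promoter elements, the ER stress response elements (ERSE), and raise transcription of many of these genes.

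The deposited estimated counts summed to 21485021 to 28480479 per library. Mitochondrially encoded transcripts took 9.79% to 11.4% of the counts in AT3 libraries, 11.2% to 16.3% in CPT libraries and 25.8% to 36.8% in CON libraries. They were taken as the genes whose names start with mt-. On the principal component that held 5.36% of the variance, replicate 3 of CPT lay at -7.41, nearer to the AT3 libraries (18.1 to 20.98) than the other CPT libraries (-29.5 and -27.8). The labelled tissue carried its markers: 11 hepatocyte marker genes summed to 73496 to 75282 TPM (a transcript level scaled to gene length and to a fixed library total) in AT3, 46375 to 61534 in CPT and 35757 to 49907 in CON. These sums are not corrected for the mitochondrial share. In CPT against CON 4 of the 11 markers were called higher and 4 lower (edgeR adjusted p under 0.05). Their log2 fold changes ran from -2.85 to 2.39, and of all tested genes 30.0% were called higher and 30.8% lower. In bulk tissue fewer cells of a type and less RNA per cell cannot be told apart.

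Promoter sequences are given for the 4 members with the largest rise in CPT that have a RefSeq promoter entry, since the values below are read against the elements they hold. Each is the run of 250 bases before the RefSeq start in the assembly GRCm38.p6, read along the gene's strand, with an ERSE match in capitals. GENCODE M21 places the start of the Hspa5, Pdia6 and Spcs1 genes further upstream, inside these windows. The Hspa5 match, at 34772025 to 34772043, lies downstream of that gene's GENCODE start at 34771970. The windows are chr2:34771840-34772089 (+) for Hspa5, chr15:88819396-88819645 (+) for Creld2, chr12:17266339-17266588 (+) for Pdia6 and chr14:31001667-31001916 (-) for Spcs1, which holds no match.
Hspa5: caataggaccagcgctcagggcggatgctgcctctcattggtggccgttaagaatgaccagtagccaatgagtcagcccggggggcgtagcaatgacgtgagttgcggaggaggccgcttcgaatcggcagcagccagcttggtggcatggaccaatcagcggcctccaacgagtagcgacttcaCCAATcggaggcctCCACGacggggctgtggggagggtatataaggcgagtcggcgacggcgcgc
Creld2: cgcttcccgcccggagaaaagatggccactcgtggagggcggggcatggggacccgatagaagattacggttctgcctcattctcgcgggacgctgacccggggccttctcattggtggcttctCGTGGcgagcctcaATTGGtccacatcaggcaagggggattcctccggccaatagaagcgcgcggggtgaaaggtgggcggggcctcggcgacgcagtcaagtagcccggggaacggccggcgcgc
Pdia6: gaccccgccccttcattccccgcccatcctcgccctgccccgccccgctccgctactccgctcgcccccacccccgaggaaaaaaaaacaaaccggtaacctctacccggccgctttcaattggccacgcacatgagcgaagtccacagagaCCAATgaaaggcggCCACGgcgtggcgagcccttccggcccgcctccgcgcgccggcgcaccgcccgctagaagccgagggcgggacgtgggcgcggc
Spcs1: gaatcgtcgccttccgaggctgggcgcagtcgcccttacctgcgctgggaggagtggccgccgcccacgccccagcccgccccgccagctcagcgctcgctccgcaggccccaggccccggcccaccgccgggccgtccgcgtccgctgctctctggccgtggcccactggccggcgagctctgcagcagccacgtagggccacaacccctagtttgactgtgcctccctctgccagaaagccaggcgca

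The element searched was CCAAT followed after 9 free bases by CCACG, on both strands of the 250 upstream bases. A RefSeq promoter was matched for 28 members, and 9 of them (32.1%) held an ERSE, while 37 of 32851 promoters of all genes (0.113%) did. Members were counted by gene and all promoters by entry. The element is known for acting on many of these genes, as described above, so the shares are not a test. By class it was found in 7 of 12 chaperones, 0 of 8 translocon and signal peptidase genes, 2 of 6 degradation genes and 0 of 2 genes of stress sensing. A match is a description of the letters in the window and not proof of a bound site. The variant ERSE-II, ATTGG followed after 1 free base by CCACG, was present in 1 member, Herpud1, and in 0.0304% of promoters; the element TGACGTGG, bound by XBP1 and ATF6 in vitro, was in 0 members and in 0.563% of promoters. The ERSE-II match does not overlap an ERSE match. The matches outside the promoters printed above are shown to let the spacing and orientation be compared, with the fixed letters in capitals; those beginning with CGTGG lie on the strand opposite to the gene's.
Canx ERSE: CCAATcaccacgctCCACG
Hsp90b1 ERSE distal: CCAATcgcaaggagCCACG
Hsp90b1 ERSE proximal: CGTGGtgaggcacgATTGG
Dnajc3 ERSE: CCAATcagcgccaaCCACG
Syvn1 ERSE: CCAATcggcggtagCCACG
Calr ERSE: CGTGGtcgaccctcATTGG
Derl3 ERSE: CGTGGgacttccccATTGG
Herpud1 ERSE-II: ATTGGgCCACG

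**Figure D1:**
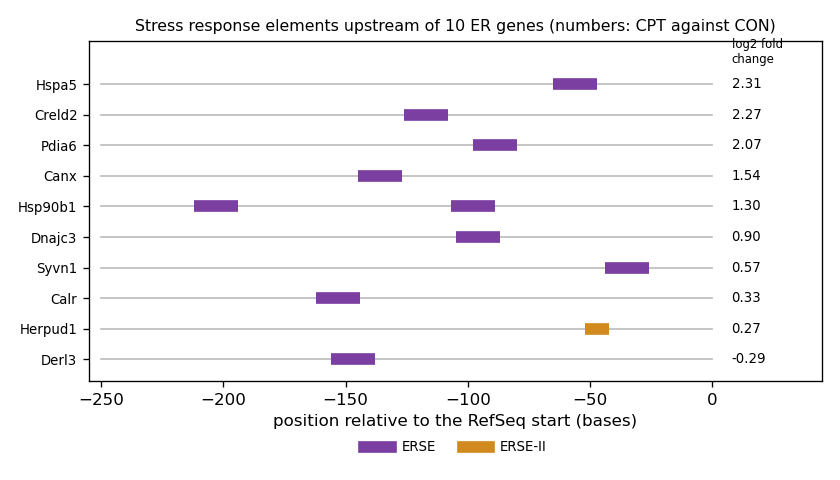
Positions of ERSE and ERSE-II matches in the 250 bases before the RefSeq start of 10 ER genes (x axis, bases relative to the start; each row is 1 gene, with its log2 fold change in CPT against CON at the right). Matches lie between 212 and 26 bases before the start, and the genes that hold them range in log2 fold change from 2.31 for Hspa5 to -0.29 for Derl3.

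The comparison of CPT with CON asks what livers injured by cisplatin show against untreated ones. In CPT 32 of the 36 genes were higher and 1 was lower, with 3 not called (edgeR quasi-likelihood test, adjusted p under 0.05 over all 13686 genes tested). Among all tested genes 60.8% were called, 30.0% higher and 30.8% lower. The median log2 fold change of the members was 1.11, beside -0.02 over all tested genes, and 19 members were called higher by at least 1 on the log2 scale, as 13.0% of all genes were. All 14 chaperones rose, with a median log2 fold change of 1.56. Of the translocon and signal peptidase genes 11 of 12 rose (median 0.82), and of the degradation genes 5 of 7 (median 0.41); Xbp1 and Atf6 rose and Ern1 fell. On the TPM scale limma called 34 members higher and 1 lower, and its calls over all genes divided into 6631 higher and 1604 lower, beside 4107 higher and 4219 lower in counts. The order of the classes is a description, since genes are not replicates of a condition.

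**Figure D2:**
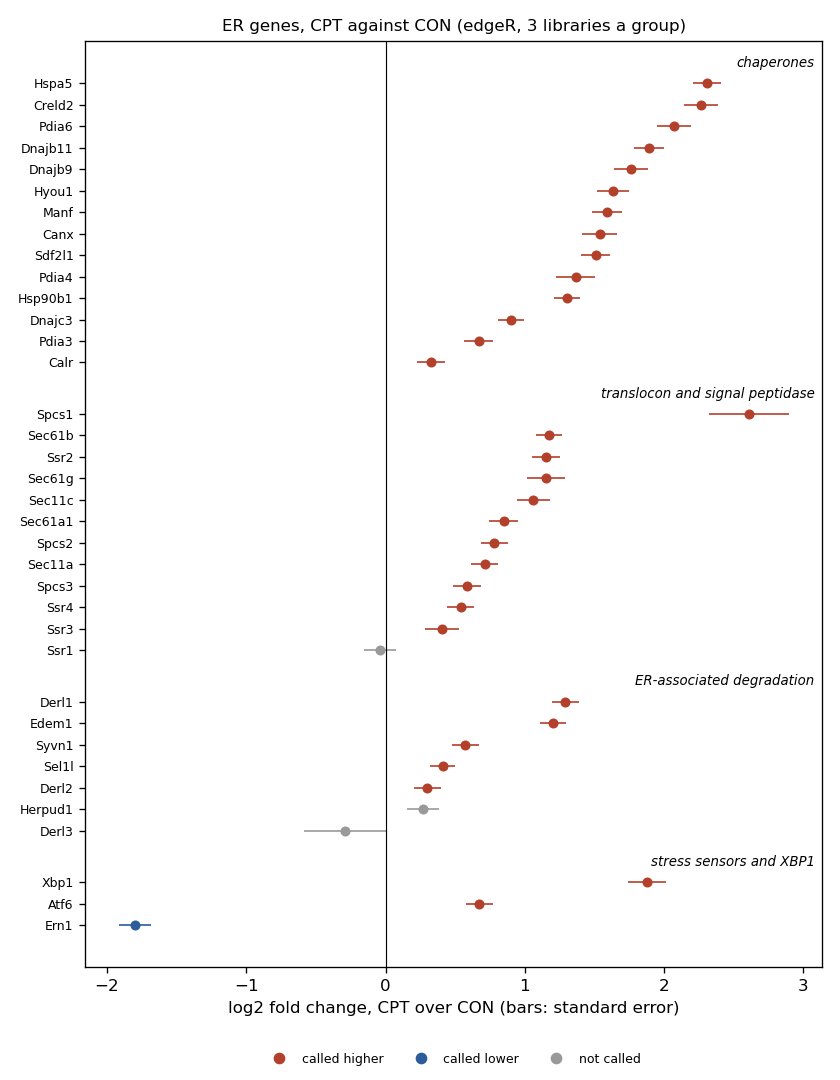
Log2 fold change of each of the 36 ER genes in CPT over CON (x axis; points are edgeR estimates from 3 libraries a group, bars their standard errors), grouped by class and coloured by call. All 14 chaperones lie right of 0, the degradation genes lie between 1.29 and -0.29, and Ern1, at -1.80, is the single gene called lower.

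The same order of classes was seen in single libraries. Taking each gene's CPM (counts scaled to a fixed library total, with library size and composition taken into account) over its mean in CON, the median log2 ratio of the 14 chaperones was 1.08, 1.27 and 1.33 in the AT3 libraries and 1.52, 1.52 and 1.69 in the CPT libraries. For the 12 translocon and signal peptidase genes it was 0.64, 0.69 and 0.75 in AT3 and 0.83, 0.74 and 0.91 in CPT. The 7 degradation genes stood at 0.32, 0.33 and 0.41 in AT3 and 0.44, 0.36 and 0.47 in CPT. In each of the 6 cisplatin libraries this CPM median was higher for the chaperones than for the translocon group. It was in turn higher for that group than for the degradation genes.

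Hspa5 encodes BiP, the HSP70 chaperone of the ER and the protein whose release from the sensors marks stress; the gene (ENSMUSG00000026864) lies on chromosome 2 from 34771970 to 34777547 in GRCm38. It measured 346, 384 and 371 CPM in AT3, 368, 436 and 423 CPM in CPT and 78.3, 85.8 and 83.8 CPM in CON. Every cisplatin library lay above every CON library, while AT3 and CPT overlapped. Of all tested genes 31.5% had every CPT library above every CON library in CPM and 32.7% every CPT library below. For AT3 against CON these shares were 34.5% and 35.9%, so a lack of overlap was common. The log2 fold change of CPT over CON was 2.31 ± 0.10 (SE; edgeR adjusted p = 5.83e-11), a 4.95-fold rise. Creld2, an ER protein induced by stress, measured 26.8, 32.9 and 33.7 CPM in AT3, 40.1, 43.6 and 50.2 CPM in CPT and 10.1, 9.07 and 8.73 CPM in CON. No libraries of the 3 groups overlapped, and CPT stood 2.27 ± 0.12 above CON (edgeR adjusted p = 5.45e-10).

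Dnajb11 (ERdj3), a J-domain partner that hands substrates to BiP, measured 88.7, 93.0 and 94.3 CPM in AT3, 87.1, 94.7 and 110.0 CPM in CPT and 24.2, 25.7 and 28.7 CPM in CON. AT3 and CPT libraries overlapped and all lay above CON, with a log2 fold change of CPT over CON of 1.89 ± 0.11 (edgeR adjusted p = 8.66e-10). Manf encodes a BiP-binding factor that is retained in the ER and secreted under stress. Its values were 141, 164 and 175 CPM in AT3, 242, 235 and 246 CPM in CPT and 80.7, 71.2 and 88.2 CPM in CON, so that the groups did not overlap, and the CPT rise was 1.59 ± 0.11 (edgeR adjusted p = 6.23e-09). The Manf gene overlaps Dcaf1 on the opposite strand and Rbm15b on its own strand. Reads in the part shared with Dcaf1 cannot be told apart because the strand setting of the counting is not stated. For the part shared with Rbm15b no strand setting would separate them.

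The other 5 genes of the HSP70 group, which also holds the ER's HSP90, rose as well. They were Dnajb9 (ERdj4, 1.76), Hyou1, a nucleotide exchange factor for BiP (1.63), Sdf2l1, which works with Dnajb11 (1.51), Hsp90b1, the ER form of HSP90 (1.30), and Dnajc3 (P58IPK, 0.90). The highest of their edgeR adjusted p-values was 5.42e-07, for Dnajc3, and no library of CPT overlapped CON for any of them.

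Among the lectin chaperones and disulfide isomerases all 5 rose, with a wide range. Pdia6, a disulfide isomerase, measured 226, 229.7 and 245 CPM in AT3, 166, 191 and 237 CPM in CPT and 48.2, 50.0 and 43.0 CPM in CON. CPT replicate 3 lay within the AT3 range, the other CPT libraries below it, and all were far above CON; the rise in CPT was 2.07 ± 0.12 (edgeR adjusted p = 1.40e-09). Canx, the membrane-bound lectin chaperone calnexin, measured 179, 177 and 171 CPM in AT3, 115, 144 and 166 CPM in CPT and 44.2, 49.2 and 52.9 CPM in CON. Every AT3 library was above every CPT library and those were above CON, and CPT exceeded CON by 1.54 ± 0.12 (edgeR adjusted p = 3.97e-08). Pdia4, another isomerase, measured 67.3, 81.9 and 87.7 CPM in AT3, 77.3, 82.8 and 102 CPM in CPT and 38.1, 27.7 and 36.1 CPM in CON. The cisplatin groups overlapped each other and not CON, and Pdia4 stood 1.36 ± 0.14 higher in CPT than in CON (edgeR adjusted p = 6.53e-07).

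Pdia3, the isomerase that works with calnexin and calreticulin, measured 406, 445 and 452 CPM in AT3, 627, 535 and 502 CPM in CPT and 331, 371 and 345 CPM in CON. No groups overlapped, and the log2 rise in CPT was 0.67 ± 0.10 (edgeR adjusted p = 5.03e-05). Calr, the soluble lectin calreticulin, had the highest level of all 36 genes per length and the smallest rise of the chaperones. Its level was 584 ± 50.8 TPM in AT3, 596 ± 39.1 in CPT and 289 ± 32.5 in CON (mean ± SD, n = 3 each), and its normalised counts were 910 to 1049 CPM in AT3, 1108 to 1231 in CPT and 897 to 1002 in CON. AT3 and CON overlapped in CPM, and CPT exceeded CON by 0.33 ± 0.10 (edgeR adjusted p = 0.0109). Calr holds an ERSE, as does Hspa5, whose rise was the largest among the chaperones.

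**Figure D3:**
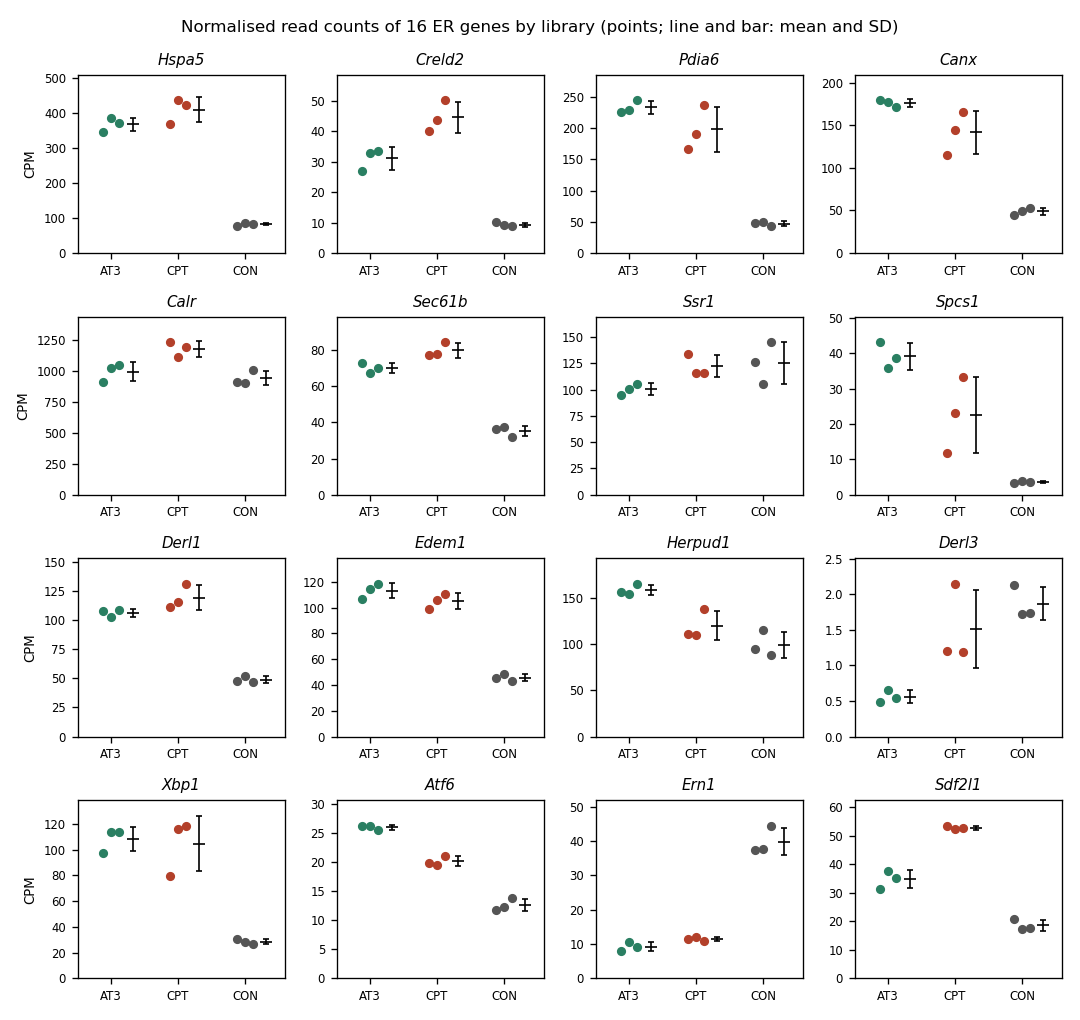
Normalised read counts (y axis, CPM from 0) of 16 ER genes in the AT3, CPT and CON libraries; points are single libraries, and the line and bar beside them are the mean and SD of 3. Most panels show the 6 cisplatin libraries above CON, Ern1 shows the reverse, and CPT libraries of Spcs1 spread from 11.7 to 33.2 CPM.

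The translocon and TRAP genes rose by smaller amounts. Sec61b, a small subunit of the channel, measured 73.0, 67.2 and 70.3 CPM in AT3, 77.1, 77.8 and 84.4 CPM in CPT and 36.4, 37.2 and 32.1 CPM in CON, a rise of 1.18 ± 0.09 in CPT over CON (edgeR adjusted p = 3.77e-08). The groups did not overlap. Ssr2, a TRAP subunit, measured 65.7, 62.8 and 69.4 CPM in AT3, 75.6, 74.5 and 86.1 CPM in CPT and 34.5, 39.4 and 32.3 CPM in CON, again without overlap (1.15 ± 0.10, edgeR adjusted p = 1.26e-07). Sec61g, the gamma subunit, measured 22.9, 21.9 and 20.4 CPM in AT3, 16.8, 18.1 and 21.5 CPM in CPT and 6.63, 9.15 and 9.46 CPM in CON (1.15 ± 0.14, edgeR adjusted p = 2.87e-06). AT3 and CPT overlapped for this gene, both above CON. Sec61a1, which forms the pore, measured 105, 109 and 120.1 CPM in AT3, 138, 120.1 and 151 CPM in CPT and 75.7, 71.1 and 80.3 CPM in CON (0.85 ± 0.10, edgeR adjusted p = 3.90e-06). The cisplatin libraries lay above CON and overlapped each other.

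The 4 TRAP subunits differed among themselves. Ssr2 was the most raised, Ssr4 rose by 0.54 and Ssr3 by 0.41, whereas Ssr1, the alpha subunit, was not called. Ssr1 measured 94.5, 101 and 106 CPM in AT3, 134, 116 and 116 CPM in CPT and 126, 105 and 145 CPM in CON, and the CPT and CON libraries overlapped (log2 fold change -0.04 ± 0.11, edgeR adjusted p = 0.784). On the TPM scale, where the median of all genes was 0.29 higher in CPT than in CON, Ssr1 was called higher (0.52, limma adjusted p = 0.00139), 0.23 above that median. On the log2(TPM + 0.1) scale Ssr1 stood at 0.56 and the median of all genes at 0.51. Ssr3 libraries of CPT (161 to 215 CPM) and CON (121 to 161 CPM) touched, although the gene was called (edgeR adjusted p = 0.00990).

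All 5 signal peptidase genes rose in CPT, and 1 of them, Spcs1, had the largest rise of all members. Spcs1 encodes a small accessory subunit of the complex, and the gene (ENSMUSG00000021917) lies on chromosome 14 from 30999826 to 31001672 in GRCm38. It measured 43.2, 35.7 and 38.6 CPM in AT3, 11.7, 23.0 and 33.2 CPM in CPT and 3.43, 4.004 and 3.60 CPM in CON. The CON libraries lay close together, the CPT libraries spread widely, with replicate 1 lowest and replicate 3 nearest to AT3, and no groups overlapped. The log2 fold change of CPT over CON was 2.61 ± 0.28 (edgeR adjusted p = 1.25e-06) and lay between 2.25 and 2.98 when any library of these groups was left out. Spcs1 shares 273 bases with Glt8d1 on the opposite strand.

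The other subunits moved less. Sec11c, a catalytic subunit, measured 15.6, 15.6 and 17.1 CPM in AT3, 11.8, 13.8 and 14.7 CPM in CPT and 5.96, 6.79 and 6.47 CPM in CON, with no overlap between groups (1.06 ± 0.12, edgeR adjusted p = 1.61e-06). Spcs2, a structural subunit, measured 69.1, 75.9 and 75.9 CPM in AT3, 80.7, 76.4 and 82.5 CPM in CPT and 45.9, 42.5 and 51.2 CPM in CON (0.78 ± 0.10, edgeR adjusted p = 3.97e-06). Its CON libraries lay below all others. The second catalytic subunit, Sec11a, measured 25.5, 26.8 and 28.8 CPM in AT3, 26.3, 28.9 and 28.9 CPM in CPT and 18.4, 16.4 and 16.6 CPM in CON (0.71 ± 0.10, edgeR adjusted p = 1.21e-05). AT3 and CPT overlapped there and CON lay below, and Spcs3 rose by 0.58.

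The degradation genes divided. Derl1, a derlin that helps draw misfolded proteins out of the ER, measured 108, 102 and 108 CPM in AT3, 111, 116 and 131 CPM in CPT and 47.4, 52.1 and 46.5 CPM in CON, a rise of 1.29 ± 0.10 (edgeR adjusted p = 1.71e-08). Edem1, a lectin of mannose-trimmed substrates, measured 107, 115 and 118 CPM in AT3, 98.9, 106 and 111 CPM in CPT and 45.7, 48.2 and 43.3 CPM in CON (1.20 ± 0.09, edgeR adjusted p = 2.56e-08). For both genes the cisplatin libraries were all above CON. Syvn1 encodes the ubiquitin ligase HRD1 and Sel1l its adaptor. Syvn1 measured 47.1, 47.9 and 53.2 CPM in AT3, 73.5, 64.8 and 65.5 CPM in CPT and 48.8, 42.5 and 45.8 CPM in CON, so that only CPT stood apart (0.57 ± 0.10 over CON, edgeR adjusted p = 9.60e-05). Sel1l measured 58.8, 59.2 and 62.9 CPM in AT3, 64.2, 60.8 and 63.1 CPM in CPT and 43.7, 46.4 and 51.5 CPM in CON (0.41 ± 0.09, edgeR adjusted p = 0.00109). CON was lowest for Sel1l in every library.

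Derl2 rose by 0.30 (edgeR adjusted p = 0.0138), and this call was lost without CON replicate 1. Herpud1, a membrane protein that assembles the HRD1 complex and a standard stress-induced gene, measured 157, 154 and 166 CPM in AT3, 112, 110.1 and 138 CPM in CPT and 94.9, 116 and 88.2 CPM in CON. CPT and CON overlapped and the difference, 0.27 ± 0.12, was not called (edgeR adjusted p = 0.0566), although it passed under 9 of 14 alternative settings, among them without CPT replicate 1, CPT replicate 2 or CON replicate 2. Derl3, the derlin that is prominent in secretory cells, was counted at 15, 21 and 15 reads in AT3, 34, 69 and 31 in CPT and 38, 44 and 31 in CON. Its CPM values were 0.492, 0.658 and 0.537 in AT3, 1.20, 2.15 and 1.19 in CPT and 2.14, 1.73 and 1.75 in CON, and CPT and CON overlapped (-0.29 ± 0.30, edgeR adjusted p = 0.415; 0.25 on the log2(TPM + 1) scale, also not called).

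The genes of stress sensing moved in opposite directions. Xbp1 encodes the transcription factor whose mRNA is spliced by IRE1, a step that gene-level counts do not show. It measured 97.4, 114 and 114 CPM in AT3, 79.9, 116 and 119 CPM in CPT and 30.6, 28.2 and 26.7 CPM in CON (1.88 ± 0.14 for CPT over CON, edgeR adjusted p = 1.64e-08), and the cisplatin groups overlapped above CON. Atf6 measured 26.2, 26.2 and 25.5 CPM in AT3, 19.8, 19.5 and 21.03 CPM in CPT and 11.8, 12.2 and 13.8 CPM in CON, without overlap between any groups (0.67 ± 0.10, edgeR adjusted p = 2.35e-05). Ern1, on chromosome 11 from 106394650 to 106487852, measured 7.87, 10.6 and 9.24 CPM in AT3, 11.4, 11.96 and 10.96 CPM in CPT and 37.4, 37.7 and 44.5 CPM in CON. It was lower in every cisplatin library than in any CON library, with a log2 fold change of -1.80 ± 0.12 in CPT over CON (edgeR adjusted p = 4.17e-09), and it was the single member lower in CPT under each of the 14 alternative settings.

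On the TPM scale, which sums over genes of different length, all 36 genes together reached 2824 to 3057 TPM in AT3, 2783 to 3258 in CPT and 895 to 1219 in CON. The mitochondrial share of the total also differs between these groups, as given above. As a share of the TPM outside the genes whose names start with mt-, the mean of CPT was 2.40 times that of CON for all members. It was 2.61 times for the chaperones, 2.28 times for the translocon and signal peptidase genes and 1.73 times for the degradation genes. For AT3 over CON these ratios were 2.26 for all members, 2.32 for the chaperones and 1.69 for the degradation genes. The translocon and signal peptidase genes stood at 2.36, so the order of the CPM medians did not hold there. Gm28437 and Gm28661, kept in the total, were among the 10 most abundant remaining genes. Whether they hold mitochondrial reads was not tested, so this correction may be partial. Over the same libraries 25 abundant secreted hepatocyte proteins were summed as a sample of the cargo of this machinery. Their sums, not corrected for the mitochondrial share, were 223841 to 229277 TPM in AT3, 177686 to 207787 in CPT and 85340 to 117210 in CON. In counts 16 of the 25 were called higher and 6 lower in CPT against CON by edgeR, where 30.0% and 30.8% of all tested genes were.

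**Figure D4:**
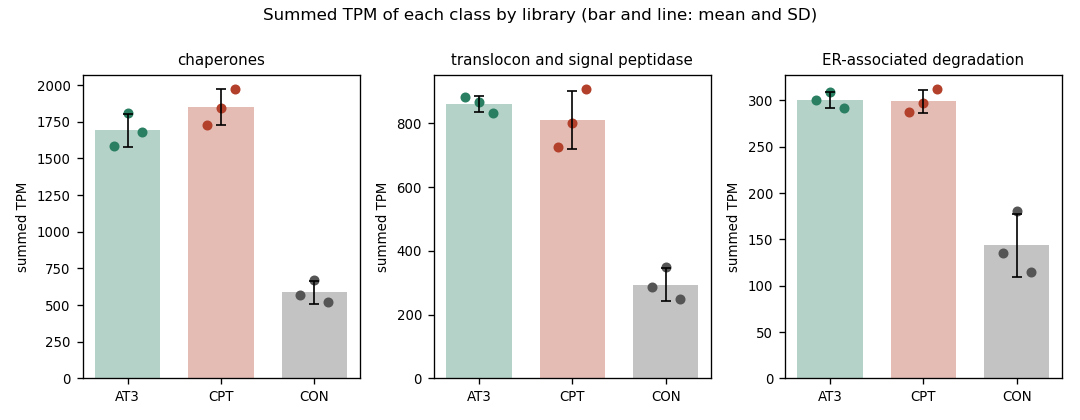
Summed TPM (y axis, from 0) of 14 chaperones, 12 translocon and signal peptidase genes and 7 degradation genes in AT3, CPT and CON; bars are means, lines SD, and points the 3 libraries. The chaperones sum to 1584 to 1810 TPM in AT3, 1727 to 1972 in CPT and 520 to 672 in CON; all classes have every cisplatin library above every CON library.

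The deposited TPM and counts gave different sizes of change for many members, also after the median of all genes was taken off. That median was 0.29 on the log2(TPM + 1) scale and 0.51 on log2(TPM + 0.1). Part of a shift common to all genes can therefore remain. Less the median of 0.29, the rise in CPT over CON on the log2(TPM + 1) scale was 0.75 for Calr, beside 0.33 in counts. For Derl2 it was 0.79, beside 0.30. For Manf it was 1.99, beside 1.59 in counts, and for Derl1 1.73, beside 1.29. The ratio of a gene's counts to its TPM, scaled in each library to the deposited gene lengths, is an effective transcript length. For Edem1 it was 3079 ± 124 bases in AT3, 3065 ± 499.6 in CPT and 5463 ± 1259 in CON (mean ± SD, n = 3 each), a log2 ratio of CPT to CON of -0.82. Sel1l went the other way with 2241 ± 73.0 in AT3, 1717 ± 221 in CPT and 1222 ± 84.4 in CON (0.48), and so did Herpud1 (0.40), Sec11c (0.38) and Sec11a (0.37). Among 6345 genes with at least 100 counts in every library, the central 90% lay between -0.25 and 0.33. The rise of Edem1 less the median of all genes was 2.15 on the log2(TPM + 1) scale, beside 1.20 in counts, and that of Sel1l was 0.23, beside 0.41. Whether transcript usage changed was not tested.

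Members with and without an ERSE both rose. Of the 9 with one, 8 were called higher in CPT (median log2 fold change 1.30), and of the 19 with a promoter entry and no exact match, 16 were higher and 1 lower (median 0.78). Of the 9, 7 were chaperones, the class with the largest median, so these medians do not separate the element from the class. Within the ERSE group the change ran from 2.31 for Hspa5 to -0.29 for Derl3, and Spcs1, with the largest rise, held no exact match to any of the 3 elements.

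Related genes outside the members were read from the same fit of CPT against CON, where 30.0% of all tested genes were higher and 30.8% lower. The genes named below all rose. The lowest log2 fold changes were -1.23 in the targeting list and -2.16 among the stress transducers. Of 12 subunits of the oligosaccharyltransferase, which attaches N-glycans as chains enter the ER, 9 were higher, 0 lower and 3 not called, with a median of 0.89. Examples were Ostc (1.83), Rpn1 (1.54) and Stt3b (1.33). Of 20 genes of the signal recognition particle and other targeting routes 15 were higher and 2 lower (median 0.90), among them Srp19 (1.83), Srp72 (1.63) and Get4 (1.41). Of 32 other folding enzymes tested 21 were higher and 2 lower (median 0.38), with the calcium-binding Calu (1.94), the disulfide isomerase P4hb (1.54) and Pdia5 (1.22). Of 22 other degradation genes 12 were higher and 0 lower (median 0.26), led by Selenos, a membrane selenoprotein of the extraction complex, with 37.5 ± 6.01 CPM in CPT and 5.26 ± 0.453 CPM in CON (log2 fold change 2.84 ± 0.14). Ube2g2, a ubiquitin-conjugating enzyme, stood at 1.91 and Erlec1, a lectin, at 1.04. Of 15 other stress transducers 8 were higher and 2 lower (median 0.42), including Rtcb, the ligase that joins cut Xbp1 mRNA (1.21), Creb3 (1.01) and Creb3l2 (0.86).

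Marker genes of other cells moved between the same groups. In CPT against CON 30.0% of all tested genes were called higher and 30.8% lower. The TPM sums below are not corrected for the mitochondrial share, so they need not follow the calls in counts. Of 11 neutrophil markers 6 were tested and 5 of them were higher in CPT than in CON, and the list summed to 32.7 to 38.2 TPM in AT3, 61.99 to 145 in CPT and 5.72 to 7.73 in CON; Ly6g, Mpo, Elane, Camp and Ngp had at most 7 counts in any library. Of 14 plasma cell markers, a cell type rich in ER, 8 were tested, 6 were lower in CPT and Sdc1, which hepatocytes also express, was higher; the list summed to 99.5 to 112 TPM in AT3, 80.6 to 101 in CPT and 61.9 to 81.8 in CON. Of 13 pancreatic acinar markers 6 were at 0 in all libraries, 3 were tested, and Cela2a and Amy2a5 were higher and Cela1 lower in CPT (sums of 33.0 to 38.1 TPM in AT3, 25.1 to 30.8 in CPT and 20.7 to 37.0 in CON). Of 10 endothelial markers 9 were lower in CPT (4.77 to 10.2 TPM in AT3, 4.29 to 6.24 in CPT and 19.4 to 27.9 in CON), and of 12 macrophage markers 6 were lower and 2 higher. The part of these cells in the changes of the ER genes was not tested.

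The comparison of AT3 with CPT asks what the AT3 group shows among livers with the same injury label. Of the 36 genes 6 were lower in AT3, 1 was higher and 29 were not called (edgeR adjusted p under 0.05), where 4.68% of all tested genes were called, 2.22% lower and 2.46% higher. The 6 were Sdf2l1, Manf, Creld2, Dnajb9, Syvn1 and Derl3, and the gene called higher was Atf6. The median log2 fold change was -0.15 for the members and 0.00 for all genes. At an unadjusted p under 0.05 there were 14 lower and 5 higher members, where 10.3% of all genes were lower and 10.4% higher. All AT3 libraries lay above all CPT libraries for 14.5% of all genes and below them for 12.5%. None of the 12 translocon and signal peptidase genes was called by edgeR, with 3 lower and 2 higher at an unadjusted p under 0.05, to be read against the same shares of all genes.

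**Figure D5:**
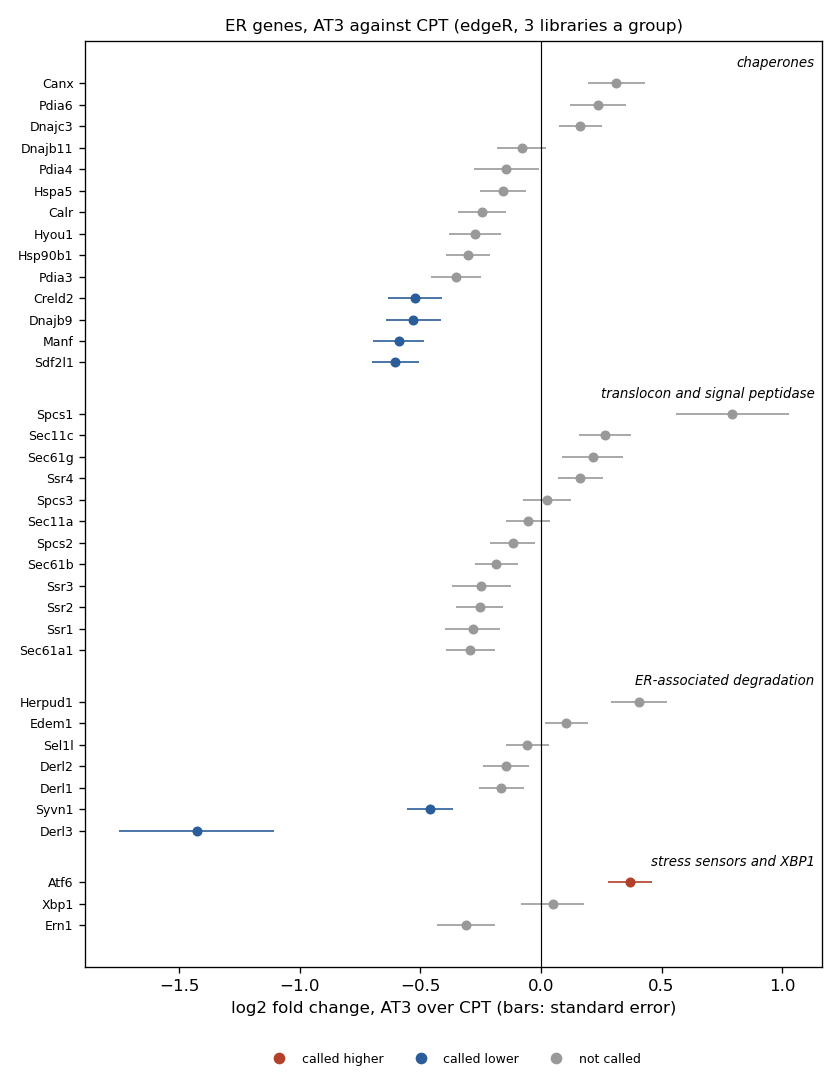
Log2 fold change of each of the 36 ER genes in AT3 over CPT (x axis; points are edgeR estimates from 3 libraries a group, bars their standard errors), grouped by class and coloured by call. Blue points mark Sdf2l1, Manf, Dnajb9, Creld2, Syvn1 and Derl3, called lower, and the red point Atf6, called higher; Spcs1, at 0.79, has a wide error and is not called.

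Sdf2l1 measured 31.5, 37.7 and 35.2 CPM in AT3, 53.6, 52.4 and 52.7 CPM in CPT and 20.8, 17.4 and 17.6 CPM in CON. The 3 groups did not overlap, with AT3 between the other groups. All 3 AT3 libraries were below CPT, with a log2 fold change of -0.60 ± 0.10 (edgeR adjusted p = 0.00355), while CPT was 1.51 ± 0.10 above CON. Manf, whose values are given above, was lower in AT3 with a log2 fold change of -0.59 ± 0.10 (edgeR adjusted p = 0.00565). Dnajb9, which recruits BiP to IRE1 and holds the sensor inactive, measured 27.95, 31.0 and 31.5 CPM in AT3, 36.5, 46.9 and 47.1 CPM in CPT and 14.2, 11.5 and 12.9 CPM in CON. AT3 again lay between the other groups without overlap (-0.53 ± 0.11, edgeR adjusted p = 0.0160). For Creld2 the difference was -0.52 ± 0.11 (edgeR adjusted p = 0.0160) and for Syvn1 -0.46 ± 0.09 (edgeR adjusted p = 0.0138). Syvn1 in AT3 overlapped CON.

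Derl3 was lower in AT3 than in CPT with a log2 fold change of -1.43 ± 0.32 (edgeR adjusted p = 0.0211), on 15 to 21 counts a library in AT3, and AT3 lay below both other groups. Atf6 was higher by 0.37 ± 0.09 (edgeR adjusted p = 0.0345), above CPT in all 3 libraries, and this call was lost under 8 of 14 alternative settings. Members that were far above CON in CPT and not called between the cisplatin groups included Hspa5 (-0.16 ± 0.10, edgeR adjusted p = 0.384), Dnajb11 (-0.08 ± 0.10), Xbp1 (0.05 ± 0.13) and Pdia6 (0.24 ± 0.12). Hsp90b1 (-0.30), Herpud1 (0.41), Pdia3 (-0.35) and Spcs1 (0.79) had edgeR adjusted p-values of 0.0574 to 0.0688 and were not called. A p above the threshold does not show that the groups are alike.

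CPT replicate 3, the library nearest to AT3, bore on this comparison. Without it 8 members were lower and 5 higher in AT3, with Canx, Pdia6, Spcs1 (log2 fold change 1.17) and Herpud1 added to Atf6 as higher. The calls over all genes grew as well, to 766 higher and 550 lower without it (5.42% and 3.89% of the genes tested), beside 337 higher and 304 lower with all libraries. Leaving out any other single library of these groups gave 93 to 172 higher and 69 to 182 lower over all genes. Among the members these gave 2 to 6 lower and 0 higher: 2 lower without AT3 replicate 1 or 2, 3 without CPT replicate 2, 4 without AT3 replicate 3 and 6 without CPT replicate 1. The calls of Sdf2l1 and Manf held under each of these. Atf6 was called when CPT replicate 3 was left out and for no other library; Dnajb9 and Derl3 were lost without any AT3 library or CPT replicate 2, Creld2 without AT3 replicate 1 or 2 or CPT replicate 2, and Syvn1 without AT3 replicate 1 or 2. On the TPM scale limma called 0 members at adjusted p under 0.05 for both pseudocounts, with 7 lower and 3 higher at an unadjusted p under 0.05. At that unadjusted threshold 684 of the 13686 genes were lower and 1330 (9.72%) higher with a pseudocount of 1, and 4.71% lower and 8.20% higher with 0.1. Of all genes limma called, at adjusted p under 0.05, 29 higher and 16 lower with a pseudocount of 1 and 20 higher and 12 lower with 0.1. Of the neutrophil markers S100a8, S100a9 and Csf3r were lower in AT3 than in CPT, and of the hepatocyte markers 4 of 11 were higher, Alb by 0.54; their part in these differences was not tested.

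Against CON, a group that CPT was set against as well, 29 members were higher in AT3, 3 lower and 4 not called (64.4% of all tested genes were called, 31.5% higher and 32.9% lower), with a median log2 fold change of 0.997. The genes not called were Calr (0.08), Ssr3 (0.16), Syvn1 (0.11) and Derl2 (0.15). On the log2(TPM + 1) scale, where the median of all genes was 0.32 higher in AT3 than in CON, limma called all 4 higher, Calr by 1.01 (adjusted p = 4.48e-05), Derl2 by 1.06, Ssr3 by 0.84 and Syvn1 by 0.76. There limma called 7017 of all 13686 tested genes higher and 1698 lower, so such a call was common. The median of all genes was 0.57 on the log2(TPM + 0.1) scale. Called lower by edgeR were Ern1 (-2.11 in AT3, beside -1.80 in CPT), Derl3 (-1.72, beside -0.29) and Ssr1 (-0.32, beside -0.04). Spcs1 stood 3.40 ± 0.28 above CON in AT3 and 2.61 ± 0.28 in CPT, Pdia6 2.31 ± 0.12 in AT3 and 2.07 ± 0.12 in CPT, and Canx 1.85 ± 0.12 in AT3 and 1.54 ± 0.12 in CPT. Hspa5 was at 2.15 ± 0.10 in AT3 and 2.31 ± 0.10 in CPT, and Sdf2l1 at 0.90 ± 0.10 in AT3 and 1.51 ± 0.10 in CPT. The Pdia3 call (0.32) was lost without CON replicate 1. Sel1l, called higher by edgeR, was not called on the log2(TPM + 1) scale (0.17, limma adjusted p = 0.220). The Ssr1 call was lost under 6 of 14 alternative settings, among them without AT3 replicate 1 or 2 or CON replicate 1 or 3, and was turned on the TPM scale (0.34, limma adjusted p = 0.0135).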

How the data were processed

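Per the labels' protocols, total liver RNA was extracted on Qiagen columns and sequencing libraries came from a SMARTer mRNA kit. Aligner, counting tool and strand setting were not given in the sources used here; what the authors deposited is estimated counts and, separately, TPM values per gene. Per the submitters' processing notes the builds GRCm38, mm10 and GRCm39 were named, with no role, so coordinates here come from GENCODE M21 on GRCm38 by gene identifier (36 of 36 members matched) and promoters from RefSeq on GRCm38.p6. The deposited estimated counts, of which 7.96% to 9.55% per library were not whole, were rounded. Group mean columns were not used, and columns of other samples numbered 0.

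Differences were tested with the quasi-likelihood method of edgeR 4.0.16 in R 4.3.3. All 9 libraries entered a single model of the 3 groups after TMM scaling and filterByExpr, and p-values were adjusted over 13686 genes by Benjamini-Hochberg. CPM use TMM-scaled library sizes, and 3 counts correspond to 0.0934 to 0.169 CPM. Standard errors follow from the F statistic. Alternatives were DESeq2 1.42.0, its size factors in edgeR, no filter, limma 3.58.1 on log2(TPM + 1) and log2(TPM + 0.1), leaving out mitochondrial and the 10 most abundant genes, only the 6 libraries compared, the replicate number as a block, and each library left out in turn. Libraries of a group differed by more than sampling noise (chi-square per degree of freedom 7.07 to 97.0).

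The members, the other gene lists and the tests were chosen with earlier results of these data known. All 36 members could be named; per-library values go to up to 4 of each subclass with the smallest p in CPT against CON, the 4 with the smallest p in AT3 against CPT, the 3 genes of stress sensing and the members not called in CPT against CON, and up to 3 genes of each other pathway list are named. Values of Calr, Hsp90b1, Pdia3, Derl2, Ssr3 and Ssr4 beyond this, and the genes whose effective length is given, were chosen after their values were seen.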

Additional observations from a re-analysis of the deposited data

How the results depend on the processing

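Of 14 alternatives per comparison, the count of members called higher in CPT than in CON stayed between 31 and 34 and the count called lower at 1; without single libraries the counts were 31 to 33 higher. In AT3 against CON 28 to 33 members were higher and 2 or 3 lower. In AT3 against CPT, where the main counts were 1 higher and 6 lower, DESeq2 gave 2 higher and no filter on low counts 3, both TPM fits gave 0 higher and 0 lower, and the block on replicate number gave 0 higher and 6 lower, the call of Atf6 being lost (edgeR adjusted p = 0.0553); without single libraries the counts were 0 to 5 higher and 2 to 8 lower. Of 504 pairs of a gene and an alternative in each comparison, direction or call changed in 20 in CPT against CON, 54 in AT3 against CPT and 19 in AT3 against CON.

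Signs changed for genes with small differences. Ssr1 in CPT against CON, -0.04 in the main fit, was 0.0034 with DESeq2, 0.0495 with no filter, 0.52 and 0.56 on the TPM scale with a pseudocount of 1 and 0.1, 0.0012 without mitochondrial and the most abundant genes, and -0.15 to 0.086 without single libraries. Derl3 was 0.25 and 0.39 on the TPM scale. In AT3 against CPT the TPM fits gave 0.042 and 0.043 for Dnajb11 and 0.19 and 0.19 for Spcs2; without single libraries Dnajb11 ranged from -0.15 to 0.020, Spcs3 from -0.0080 to 0.092 and Xbp1 from -0.11 to 0.15. Ssr1 in AT3 against CON was 0.34 and 0.38 on the TPM scale. The causes were not tested. The TPM scale moved the median of all genes by 0.29 (pseudocount 1) and 0.51 (pseudocount 0.1) in CPT against CON, and its calls divided into 6631 higher and 1604 lower, 80.5% higher, beside 49.3% in the main fit.

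Deviations of same-numbered libraries correlated at -0.04 to 0.08, 0 of 9 pairs exceeded 0.1, and 8 of 18 comparisons were best with the own number. Between AT3 and CPT, however, the same-numbered pairs stood at 0.052, 0.076 and 0.067, and the differently numbered pairs at -0.058 to -0.018. Whether the replicate numbers pair the samples cannot be told from these small values. With the number as a block 32 members were higher and 1 lower in CPT against CON, and 29 higher and 3 lower in AT3 against CON. Depth limits Derl3 most, with 15 to 69 counts a library.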
